A study of Homo sapiens and Mus musculus with 12 samples.

Results

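The KLF and GRHL genes examined here encode transcription factors and were grouped under the label of epithelial factors. The data are the places near 7 of them where SPDEF or GATA6 was mapped in human pancreatic ductal adenocarcinoma (PDA) cells. The 7 genes are KLF3, KLF4, KLF5, KLF6, KLF10, GRHL1 and GRHL2. A peak was taken as near a gene when it lay within 100 kb of the gene's hg19 interval, which was given in whole kb. This chose 3 of the 2775 SPDEF peaks and 22 of the 10670 GATA6 peaks, over windows of 1714 kb in all. Peaks were picked by position alone, but the genes, lists and distance were chosen with earlier results of these data known.

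The series measured chromatin binding by CUT&RUN, in which an antibody directs a nuclease to its target and the released fragments are sequenced. Cells of HPAF-II, an established line of human PDA, carried HA-tagged SPDEF in all 8 of its libraries: 3 made with an antibody against the HA tag, called SPDEF here, 3 against GATA6, 1 with control IgG and 1 against H3K4me3. The GATA6 libraries are thus from cells that also carried the tagged factor. The other 4 libraries came from mouse FC1245 cells and were not used. Each human target has 1 deposited peak list without scores or replicate values, so no value below has a replicate error, depth is unknown, and intervals cover counting error only. No peaks of the H3K4me3 or IgG libraries were used here. Gene activity was not measured, and a peak within 100 kb is not shown to act on the gene.

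As background, KLF proteins bind GC-rich and CACCC sequences through zinc fingers at their C-terminal end. KLF4 and KLF5 are known from the renewal and differentiation of gut and skin epithelium, KLF6 as an early-response gene, KLF10 as a gene induced by TGF-beta, and KLF3 as a repressor that recruits CtBP. The GRHL proteins are grainyhead-type factors, and GRHL2 is known to activate E-cadherin and other junction genes that hold epithelial cells together. SPDEF is an ETS factor of mucus-secreting epithelium, and GATA6 marks the classical subtype of PDA.

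SPDEF peaks lay near KLF6, KLF10 and GRHL2, with 1 peak each, and near none of KLF3, KLF4, KLF5 and GRHL1. GATA6 peaks lay near 6 of the 7 genes, with 10 at KLF6, 4 at GRHL2, 3 at KLF5, 2 each at KLF3 and KLF10, 1 at KLF4 and 0 at GRHL1. With the wider 50% of each list, SPDEF peaks remained at KLF6 (1 peak), and GATA6 peaks at KLF6 (9), GRHL2 (3) and KLF3 (2), while KLF4, KLF5 and KLF10 had 0. For scale, hg19 was divided into windows as long as each gene's own. Of these, from 12.5% (length of the KLF4 window) to 20.0% (GRHL2) held at least 1 SPDEF peak midpoint, and from 35.2% (KLF10) to 49.7% (GRHL2) at least 1 GATA6 midpoint. The windows cover gene-poor as well as gene-rich sequence, so they are no comparison with other genes. A gene with no SPDEF peak is the usual case by this measure. Peaks of both lists lay near 3 of the 7 genes, and 11.8% of windows of the median length, 223 kb, held midpoints of both.

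Set against the number that the length of the windows gives at the genome-wide rate, the 3 SPDEF peaks stood beside 1.54 expected, a ratio of 1.95 (95% Poisson interval 0.403 to 5.71). The interval includes 1. The 22 GATA6 peaks stood beside 5.91 expected, a ratio of 3.72 (2.33 to 5.64). KLF6 alone supplied 10 of the 22, and without it 12 GATA6 peaks gave a ratio of 2.32 (1.20 to 4.04). The Poisson interval treats peaks as independent, and GATA6 peaks at KLF6 lay close together, so the intervals are too narrow. The genome-wide rate also covers gene-poor sequence, and the rate near other genes was not computed. No ratio to this rate, here or below, is therefore a comparison with other genes.

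**Figure D1:**
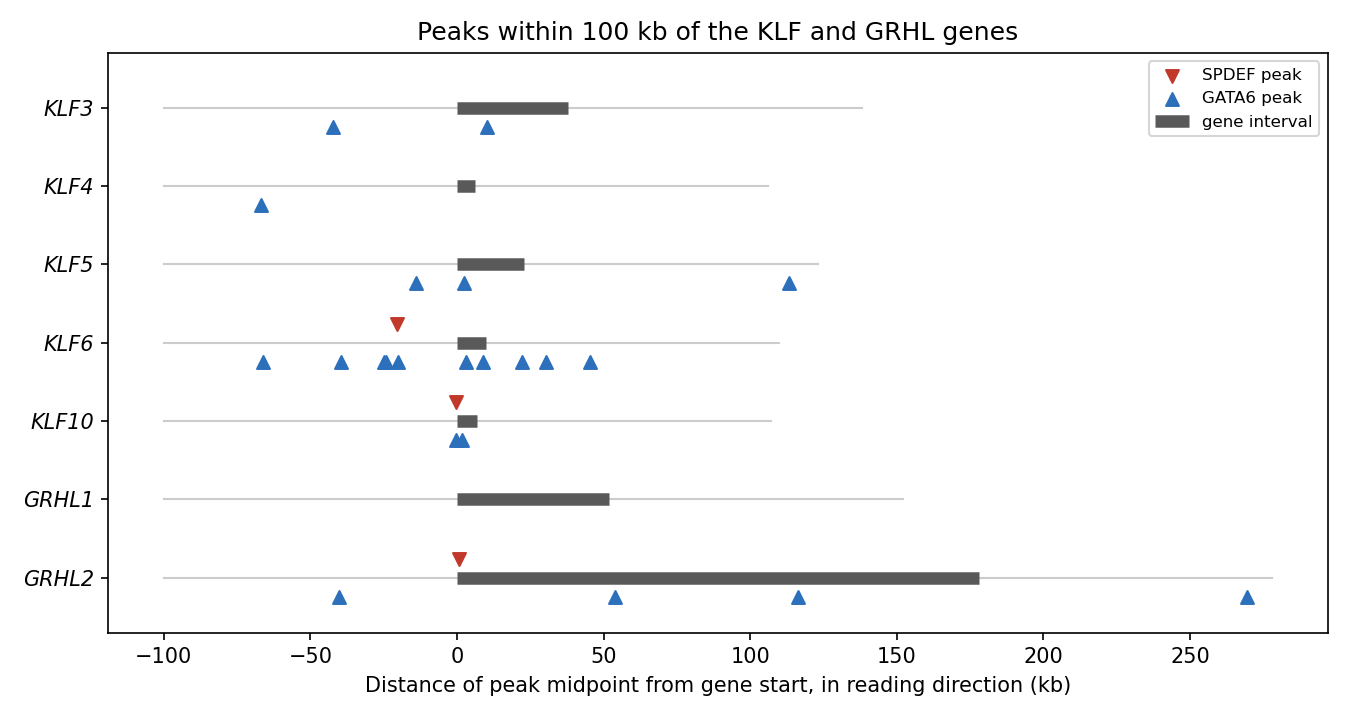
Midpoints of SPDEF peaks (red, above) and GATA6 peaks (blue, below) by distance from the gene start in kb, in the direction in which each gene is read. Grey bars are the gene intervals and thin lines the 100 kb on either side. KLF6 has 10 GATA6 peaks, 5 upstream, 2 inside the gene and 3 downstream. The SPDEF peaks of KLF10 and GRHL2 sit at the interval edges taken as gene starts.

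KLF10 had the only SPDEF peak that met a GATA6 peak at a gene start. Its interval on chromosome 8 runs from 103661 to 103668 kb, and it is read from the right edge. The SPDEF peak at chr8:103668062-103668260 was 199 bp wide and began 0.061 kb outside that edge. The GATA6 peak at chr8:103668109-103668373 was 265 bp wide and shared 152 bp with it. Their midpoints were 80 bp apart, near the median offset of 88 bp (quartiles 27.5 and 201.25) over all 1827 overlapping SPDEF and GATA6 pairs. A second GATA6 peak lay inside the gene at chr8:103666295-103666595, 1.41 kb from the start. Since the edges are known to 1 kb, the paired peaks can be placed at the start but not to one side of it. Of windows of this length, 18.1% held at least 2 GATA6 midpoints. ODF1 is the other protein-coding gene within 100 kb of KLF10.

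GRHL2 had an SPDEF peak at the edge of its interval taken as its start, with no GATA6 peak beside it. The gene spans 102504 to 102682 kb of chromosome 8 and is read from the left edge. The SPDEF peak at chr8:102504664-102504877 was 214 bp wide and lay 0.664 kb inside that edge. The nearest GATA6 peak was 40.2 kb away. Over the 979 SPDEF peaks that overlapped no GATA6 peak, the median gap was 30.5 kb (quartiles 1.98 and 113.0), so this gap was within the usual range.

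The GATA6 peaks of GRHL2 were spread over the locus and away from the start. The widest GATA6 peak of any of the 7 loci lay 39.5 kb upstream, at chr8:102463290-102464501, with 1212 bp. Inside the gene were peaks of 444 bp (chr8:102557671-102558114) and 1181 bp (chr8:102619699-102620879), 53.7 and 116.0 kb from the start. The fourth, of 216 bp (chr8:102773368-102773583), lay 91.37 kb beyond the gene's end. NCALD is the other protein-coding gene within 100 kb of GRHL2. At least 4 GATA6 midpoints were held by 13.1% of windows of this length. RefSeq gives GRHL2 a length of 189.0 kb in GRCh38, against 178 kb in the interval used. The end at which they differ is not known, so the start of GRHL2 here means only the left edge of that interval. For the other 6 genes the lengths differed by at most 1.41 kb.

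KLF6 stood out by its GATA6 peaks. The 10 peaks lay within 113.0 kb around a gene of 10 kb (3818 to 3828 kb of chromosome 10, read from the right edge). Over the whole window of 210 kb they gave 4.76 peaks per 100 kb. The window had 0.724 expected, a ratio of 13.8 (6.63 to 25.4). Of the 13487 hg19 windows of the same length, 35.6% held a GATA6 midpoint and 32 held 10 or more (0.237%). The RefSeq table places no other protein-coding gene within 100 kb of KLF6.

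Of the KLF6 peaks, 5 lay upstream, 2 inside the gene and 3 downstream. The widest, of 1196 bp, lay 65.6 kb upstream at chr10:3893620-3894815. The peak nearest the start, of 373 bp, lay inside the gene at chr10:3824856-3825228, 2.77 kb from the start. The second peak within the gene, at chr10:3818889-3819269, lay at its far end, 8.73 kb from the start. The smallest gap between neighbours was 178 bp, between a peak at chr10:3852050-3852512 and one at chr10:3852691-3853069, and the median gap was 13.1 kb.

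The SPDEF peak of KLF6 lay upstream and inside a GATA6 peak. At chr10:3848300-3848728 it was 429 bp wide, wider than 79.2% of SPDEF peaks, and all of its bases were covered by the GATA6 peak at chr10:3847683-3848866, of 1184 bp. The pair lay about 20 kb from the gene start (20.3 and 19.7 kb from the nearest edges). Its midpoints were 239.5 bp apart, above the upper quartile of all pairs. The other 9 GATA6 peaks of KLF6 had no SPDEF peak on them, and over the whole GATA6 list only 16.1% had one.

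The RefSeq promoter table has entries for 4 of the 7 genes (GRHL1, KLF4, KLF5 and KLF6), 5 promoters in all, since KLF5 has a pair. The starts of KLF6 and KLF5 are shown because GATA6 peaks lay a few kb from the start edge of each hg19 interval and not on it. Each sequence is the 250 bases before a start, from RefSeq on GRCh38.p14, written in the direction of the gene, with capitals for CACCC or its reverse complement GGGTG. The KLF6 sequence is chr10:3785210-3785459 on the minus strand, and those of KLF5 are chr13:73054726-73054975 and chr13:73058755-73059004 on the plus strand. These positions are in another build than the peaks, and no peak was placed on them by coordinate. Below, a peak is set beside the KLF5 starts only by assuming that the first is at the interval's left edge.
KLF6: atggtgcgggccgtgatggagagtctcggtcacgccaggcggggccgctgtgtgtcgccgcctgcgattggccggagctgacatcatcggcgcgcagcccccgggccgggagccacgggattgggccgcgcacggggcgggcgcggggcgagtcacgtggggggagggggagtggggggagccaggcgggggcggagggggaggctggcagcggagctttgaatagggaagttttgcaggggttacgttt
KLF5 first start: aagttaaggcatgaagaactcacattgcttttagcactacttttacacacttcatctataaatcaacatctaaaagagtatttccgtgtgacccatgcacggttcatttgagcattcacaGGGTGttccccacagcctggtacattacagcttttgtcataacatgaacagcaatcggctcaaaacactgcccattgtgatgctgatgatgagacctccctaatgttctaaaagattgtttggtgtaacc
KLF5 second start: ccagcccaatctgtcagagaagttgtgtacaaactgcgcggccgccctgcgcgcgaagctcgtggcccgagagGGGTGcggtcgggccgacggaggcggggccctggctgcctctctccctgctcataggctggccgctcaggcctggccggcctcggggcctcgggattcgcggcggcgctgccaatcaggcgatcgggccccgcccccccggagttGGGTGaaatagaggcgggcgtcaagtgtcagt

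The first KLF5 promoter is rich in A and T, with a GC share of 40.8%. The second KLF5 promoter has 70.8% and that of KLF6 72.4%, and the median over all promoters is 58%. CACCC, the letters bound by KLF factors, was found on either strand in both KLF5 promoters and in none of those of KLF6, KLF4 and GRHL1. Counted over the 300 bases of the table entries, 59.9% of all 35116 promoters hold it. GATAA, the letters of GATA factors, was in 0 of the 5 promoters, against 22.7% of all. The letters of SPDEF, searched as CCGGAT (7.12% of all) and GGATG (40.8%), and those of GRHL factors, ACCGGT (1.83%), were in 0 of the 5 as well. No motif match overlapped another. A match or its absence in these windows says nothing about the peaks, which lay elsewhere.

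KLF5 had 3 narrow GATA6 peaks and no SPDEF peak. The one nearest the start, chr13:73631238-73631499, lay inside the gene (73629 to 73652 kb), 2.24 kb from its left edge, and was 262 bp wide. RefSeq has KLF5 starts 4029 bases apart, and the peak falls between them if the first is at the left edge within its 1 kb. A peak of 212 bp lay 13.8 kb upstream (chr13:73614952-73615163). The widest, of 294 bp, lay 90.05 kb past the gene's end (chr13:73742046-73742339).

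All 3 KLF5 peaks were narrower than the GATA6 median of 346 bp. They gave a ratio of 3.90 (0.805 to 11.4) by the genome rate. Chromosome 13 is poor in GATA6 peaks, and by its own rate the ratio was 12.5. Of windows of this length, 37.2% held at least 1 GATA6 midpoint and 10.8% at least 3. The nearest SPDEF peak on the chromosome was 20400 kb away. The window also holds PIBF1.

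KLF3 and KLF4 had GATA6 peaks only. At KLF3 (38665 to 38703 kb of chromosome 4) a peak of 848 bp lay inside the gene, 9.93 kb from the start (chr4:38674934-38675781), and one of 891 bp lay 41.75 kb upstream (chr4:38622360-38623250). Both were wide for the list, wider than 85.3% and 87.2% of GATA6 peaks. Of windows of this length, 38.2% held at least 1 GATA6 midpoint and 20.6% at least 2. The nearest SPDEF peak was 937.5 kb from KLF3.

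At KLF4 (110247 to 110253 kb of chromosome 9) the single GATA6 peak, of 268 bp, lay 66.7 kb upstream (chr9:110319710-110319977). A window of this length holds at least 1 GATA6 midpoint in 35.3% of cases. The nearest SPDEF peak was 2420 kb from KLF4. The RefSeq table has no other protein-coding gene within 100 kb of KLF4, and TLR1 and TLR10 within 100 kb of KLF3.

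GRHL1 had no peak of either list. Its window of 252 kb (gene 10091 to 10143 kb of chromosome 2) had 0.226 SPDEF and 0.868 GATA6 peaks expected. At least 1 SPDEF midpoint was held by 14.8% and at least 1 GATA6 midpoint by 39.8% of windows of this length. The nearest GATA6 peak lay 107.2 kb from the gene. The nearest SPDEF peak lay 117.6 kb downstream (chr2:10260578-10260788) and overlapped a GATA6 peak (chr2:10260538-10260832). KLF11, another member of the KLF family, lies within 100 kb of GRHL1, as do CYS1 and TAF1B.

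At the genome-wide rate, the order of the genes by GATA6 peaks over expectation was KLF6 (13.8), KLF5 (3.90), GRHL2 (3.07), KLF10 (2.80), KLF3 (2.44), KLF4 (1.41) and GRHL1 (0). The intervals of neighbours in this order overlapped throughout, and that of KLF6 (6.63 to 25.4) overlapped those of all but GRHL1 (0 to 4.25). For SPDEF the ratios were 5.39 at KLF10, 5.31 at KLF6, 2.95 at GRHL2 and 0 at the others. With counts of 0 and 1 these intervals all overlapped. The order depended on the rate. At the rate of each gene's own chromosome the GATA6 ratios were 14.7 at KLF6, 12.5 at KLF5, 3.89 at KLF3, 2.49 at GRHL2, 2.27 at KLF10, 2.12 at KLF4 and 0 at GRHL1. The SPDEF ratios were then 5.92 at KLF6, 4.56 at KLF10 and 2.50 at GRHL2.

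**Figure D2:**
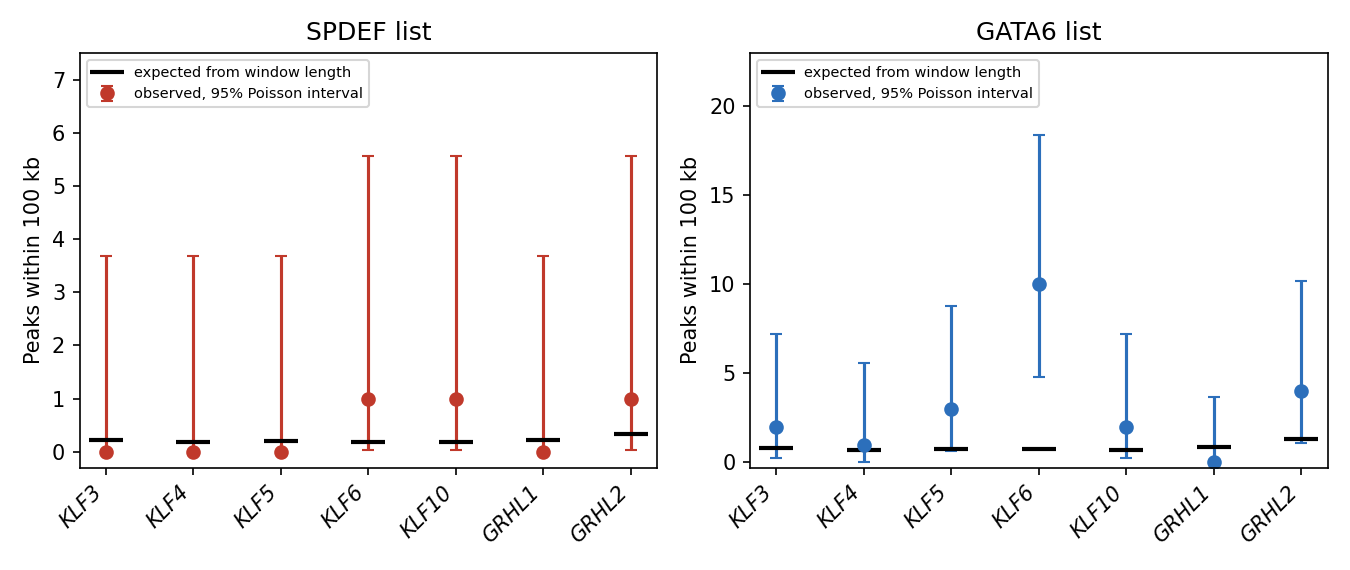
SPDEF peaks (left) and GATA6 peaks (right) within 100 kb of each gene. Points are counts with 95% Poisson intervals and black bars the number expected from window length; the GATA6 count of 10 at KLF6 is the only one whose interval lies wholly above its bar.

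Within the SPDEF list, 2 of the 3 peaks near these genes overlapped a GATA6 peak (66.7%, 95% Wilson interval 20.8 to 93.9), beside 64.7% of the other 2771 SPDEF peaks. Within the GATA6 list, 2 of 22 overlapped an SPDEF peak (9.09%, 2.53 to 27.8), beside 16.1% (15.4 to 16.8) of the other 10647. Over the whole lists the shares were 64.7% and 16.1%. Both intervals hold the share of the rest, so no difference was detectable at these counts.

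Peak number relative to length was higher within 25 kb of the genes than within 100 kb in both lists, with intervals that overlapped. Within 10 kb lay 2 SPDEF peaks (ratio 4.92, 0.595 to 17.8) and 8 GATA6 peaks (5.11, 2.21 to 10.1), and within 25 kb 3 SPDEF (5.04, 1.04 to 14.7) and 14 GATA6 peaks (6.12, 3.34 to 10.3). Within 500 kb the ratios were 1.53 (0.732 to 2.81) for SPDEF, with 10 peaks, and 2.66 (2.06 to 3.38) for GATA6, with 67. KLF6 held 7 of the 14 GATA6 peaks within 25 kb and 2 of the 8 within 10 kb. These windows are nested and share peaks. The SPDEF interval lay above 1 only at 25 kb among the 6 distances counted.

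**Figure D3:**
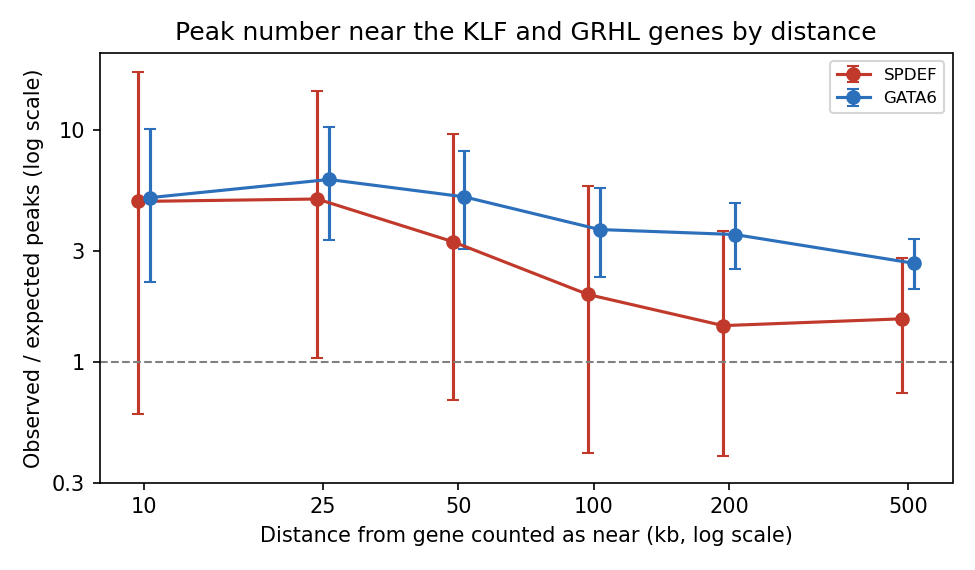
Observed over expected number of SPDEF and GATA6 peaks by the distance from the gene counted as near (kb, log axes), summed over the 7 genes. Bars are 95% Poisson intervals and the dashed line is a ratio of 1; GATA6 lies above it at every distance, from 6.12 at 25 kb to 2.66 at 500 kb.

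GATA6 peaks near these genes had a median width of 412.5 bp (156 to 1212), against 346 bp for the list. Of the 22, 14 were wider than the list's median, with 9 of these at KLF6, 3 at GRHL2 and 2 at KLF3. The higher median width thus rested largely on KLF6. Above the list's upper quartile of 641 bp were 9 of the 22. The 9 wide peaks lay at KLF6, GRHL2 and KLF3, none closer than 9.93 kb to a gene start. The 4 GATA6 peaks within 5 kb of a start, at KLF5, KLF6 and KLF10, were 262 to 373 bp wide. The SPDEF peaks showed the same order, with 199 and 214 bp at the starts of KLF10 and GRHL2 and 429 bp upstream of KLF6, beside a list median of 268 bp. The limit of 5 kb was chosen after the values were seen, and width depends on depth and peak calling, which were not given.

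**Figure D4:**
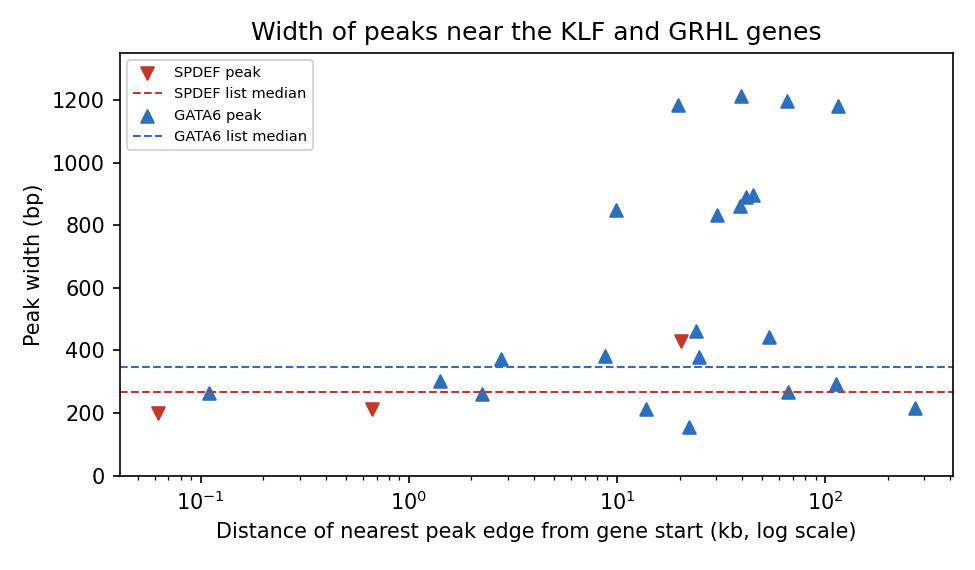
Width in bp of each SPDEF and GATA6 peak near the 7 genes against the distance of its nearest edge from the gene start (kb, log axis). Starts are the edges of the intervals used, given in whole kb. Dashed lines are the list medians of 268 bp (SPDEF) and 346 bp (GATA6); the 9 GATA6 peaks wider than 641 bp all lie at 9.93 kb or farther.

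Just inside the limit of 100 kb were the GATA6 peaks 90.05 kb from KLF5 and 91.37 kb from GRHL2. Just outside were a GATA6 peak of 820 bp at 100.6 kb from KLF10 and one of 261 bp at 107.2 kb from GRHL1.

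The remaining genes of both families had no hg19 positions and could be placed against the peaks only by cytogenetic band, which holds many genes. The list was KLF1, KLF2, KLF7, KLF8, KLF9, KLF11, KLF12, KLF13, KLF14, KLF15, KLF16, KLF17, KLF18 and GRHL3, 14 genes in 13 bands. Their band names come from GRCh38, so a gene at a band edge may lie in another hg19 band. The bands of the 7 genes were read from their hg19 intervals. KLF11 shares the band 2p25.1 with GRHL1, and KLF12 shares 13q22.1 with KLF5, so the bands of the remaining genes are not separate from those of the 7. A band was counted as high or low when its Poisson interval lay wholly above or below 1. For SPDEF 1 of 14 genes was in a high band (12.9% of all 862 bands are) and 0 in a low one (9.86%). That gene was KLF2, in 19p13.11, with 9 peaks against 3.32 expected (ratio 2.71, 1.24 to 5.15). A count of 0 peaks has an upper limit of 3.69, so a band with fewer expected could not be low. For SPDEF only the bands of KLF11 (4.57 expected) and KLF16 (6.18) exceeded that, so band size nearly fixed the 0 in low ones. For GATA6 0 of 14 were in a high band (19.3%) and 1 in a low one (27.0%), KLF8 in Xp11.21 with 3 against 11.4 (0.264, 0.0544 to 0.771). The median ratio of the 13 bands was 0.930 for SPDEF and 0.841 for GATA6, beside 0.485 and 0.829 over all bands. The shares and medians over all bands include the centromeric, variable and stalk bands that the comparison windows left out. They are therefore no comparison with other bands that hold genes. Among the bands of the 7 genes, GATA6 was high in 10p15.1 (KLF6, 31 peaks against 9.65 expected, ratio 3.21, 2.18 to 4.56) and in 8q22.3, which holds both KLF10 and GRHL2 (ratio 2.4, 1.70 to 3.29). These band counts include peaks already counted near the genes, so they are no separate result. For SPDEF no band of the 7 genes was high or low.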

How the data were processed

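The CUTANA ChIC/CUT&RUN kit was used for the assay, per the labels' protocols. Tools named, without a role, in the submitters' processing notes are MACS2 2.2.7.1, Bowtie2 2.4.4, deepTools and SAMtools 1.14, with hg19 as the human build. Peak threshold, control and any pooling of replicates are not given in the sources used here. Each file deposited by the authors is a peak list that gives chromosome, start and end, with no height or p-value, and names a target but no replicate. Positions are printed counting from 1.

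Peaks were counted near each gene when an edge lay within 100 kb of its interval, with overlap as at least 1 bp shared. Expected numbers are window length times the rate over chromosomes 1 to 22, X and Y. Ratios carry exact 95% Poisson intervals and shares 95% Wilson intervals, and no significance test was made, since there are no replicates. Comparison windows tile hg19 outside centromeric, variable and stalk bands and count midpoints. Reading direction came from the RefSeq promoter table for 4 genes and from general knowledge for KLF3, KLF10 and GRHL2. Neighbouring genes, and band names of the other family genes, came from RefSeq positions on GRCh38.p14. The genes, lists and distances were chosen with earlier results of these data known. Named peaks were all SPDEF peaks near a gene, the GATA6 peaks overlapping them, and the GATA6 peak nearest the start and the widest of each gene; other GATA6 peaks with positions were named after their values were seen. Counting was tested on simulated data. Python 3.11.15, numpy 2.4.6, scipy 1.17.1, R 4.3.3 and circlize 0.4.16 (bands) were used. Other distances, width limits, overlap rules, rates and KLF6 left out were tried.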

Additional observations from a re-analysis of the deposited data

How the results depend on the processing

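No paired analysis was possible because the deposited lists hold no separate values of the replicates, so none could be left out either. The distances of 10, 25 and 500 kb and the count without KLF6 were chosen after seeing the data. The GATA6 ratio of 3.72 stayed above 1, with its interval, under the 9 alternatives run, from 2.32 without KLF6 to 6.12 within 25 kb. The SPDEF ratio had 1 inside its interval under 8 of 9, the exception being 25 kb. GATA6 counts of 22 became 8, 14, 38 and 67 within 10, 25, 200 and 500 kb, 14 with the wider 50% of the list and 12 without KLF6. SPDEF counts of 3 became 10 within 500 kb and 1, the KLF6 peak, with the wider 50%, where the share overlapping GATA6 was then 1 of 1 (100%). With 50% of both peaks covered, the shares were 33.3% of SPDEF and 4.55% of GATA6 peaks. Gene intervals widened by 1 kb gave 3 SPDEF and 23 GATA6 peaks, the added one at KLF10. Differing distances change the sum by construction. Counts of 0 or 1 limit every statement on SPDEF at a single gene.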

Other observations

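Beyond 100 kb, the locus with the largest gain in GATA6 peaks of the 7 was KLF10. Between 100 and 200 kb from it lay 8 GATA6 peaks, all upstream, from 100.6 to 155.2 kb away and 146 to 820 bp wide. None of the 8 overlapped an SPDEF peak, beside an overlapping share of 16.1% over the whole GATA6 list. With these 8 the count within 200 kb of KLF10 was 10, beside 11 within 200 kb of KLF6. No expected number was computed for KLF10 alone at 200 kb. GRHL1, with 0 peaks within 100 kb, had 1 SPDEF and 4 GATA6 peaks between 100 and 200 kb, and 4 SPDEF and 8 GATA6 peaks within 500 kb. KLF4 kept its single GATA6 peak out to 500 kb, and KLF3, KLF4 and KLF5 had 0 SPDEF peaks within 500 kb. The distance of 500 kb was chosen after the values were seen, and whether the peaks lie nearer to other genes was not examined.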
